A study of Mus musculus with 30 samples.

Results

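The constitutive proteasome subunits were taken as the protein-coding genes whose symbol starts with Psma, Psmb, Psmc or Psmd followed by a digit, without the catalytic beta subunits Psmb5, Psmb6 and Psmb7 and their immunoproteasome counterparts Psmb8, Psmb9 and Psmb10. This rule found 33 of the 30952 genes in the expression table. Of these, 12 belong to the 20S core particle (8 Psma and 4 Psmb genes) and 21 carry 19S regulatory particle names (7 Psmc and 14 Psmd genes). The choice used gene names and biotype only, not expression.

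The proteasome degrades proteins that have been marked with ubiquitin. Its 20S core is a barrel of stacked rings, the outer rings built of alpha (Psma) subunits and the inner rings of beta (Psmb) subunits, some of which carry the proteolytic sites inside the chamber. The 19S particle caps the barrel: its ATPases (Psmc) unfold the substrate and thread it into the core, and its non-ATPase subunits (Psmd) bind ubiquitin chains, remove them or hold the lid together. In inflamed tissue, interferon-gamma exchanges the catalytic beta subunits for their immunoproteasome forms, whereas the subunits described here are shared by both kinds of particle. Psma8 is a testis form that takes the place of Psma7 in the proteasome of germ cells. Psmd5, Psmd9 and Psmd10 are chaperones that assemble the 19S base and leave the finished particle. Psmc3ip fits the name pattern but encodes a meiotic recombination cofactor, not a subunit, so the 19S means and medians of the EAE comparison are also given without it.

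Poly(A) RNA was sequenced from microglia and astrocytes sorted from the spinal cord of female C57BL/6J mice, 8 to 10 weeks old at immunization where they were immunized, to ask which transcripts depend on RIPK1 kinase during experimental autoimmune encephalomyelitis (EAE), a mouse model of multiple sclerosis. Each cell type was represented by 4 naive, 6 EAE-vehicle and 5 EAE-RIPK1inh-1 libraries, 30 in all. EAE was induced with MOG peptide in adjuvant with pertussis toxin, and at a clinical score of around 1 the mice received BID, by oral gavage over 3 days, either 20% Captisol as vehicle or the RIPK1 kinase inhibitor GSK'547 (RIPK1inh-1) at 50 mg/kg. Naive mice carried the label naive and no treatment, so immunization, adjuvant, toxin, dosing and vehicle all separate them from the EAE-vehicle mice and cannot be told apart. Microglia were gated as CD11b+CD45intCX3CR1+ cells and astrocytes as GLAST+CD11b-CD45-CD140a- cells.

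The values were log2 FPKM as deposited, from 0 to 15.34, and read depth is unknown because the files hold no counts. Genes with signal numbered 8710 to 20398 in the microglia libraries and 6728 to 22981 in the astrocyte libraries, and 3 libraries had signal in under 9000 genes, namely naive microglia 4, naive astrocytes 2 and EAE-vehicle astrocytes 1. Astrocyte markers averaged 8.87 to 9.30 (median 9.24) in naive, 8.06 to 8.95 (8.33) in EAE-vehicle and 8.42 to 9.27 (8.73) in EAE-RIPK1inh-1 astrocyte libraries. The astrocytes' own markers were thus lower in most EAE-vehicle than in naive libraries. In microglia libraries astrocyte markers averaged 0.88 to 2.00. Microglia markers averaged 10.45 to 11.07 in naive, 9.04 to 9.47 in EAE-vehicle and 8.91 to 10.16 in EAE-RIPK1inh-1 microglia libraries, so naive and EAE-vehicle did not overlap. Astrocyte libraries also carried RNA of other cells. Over 10 microglia markers their mean was 0.88 to 2.60 in naive, 2.43 to 4.57 in EAE-vehicle and 2.51 to 3.56 in EAE-RIPK1inh-1 mice, with Aif1 and Itgam without signal in every naive library, and over 8 monocyte and neutrophil markers it was 0.07 to 1.15, 1.14 to 3.57 and 1.28 to 4.41, with Ly6g without signal in any library. The astrocyte mean over 7 T cell markers was 0.43 to 1.62 in naive, 1.52 to 5.71 in EAE-vehicle and 1.62 to 5.55 in EAE-RIPK1inh-1 mice, with Cd3d and Lck without signal in every naive library. Over 7 oligodendrocyte markers the astrocyte mean was 5.58 to 7.39, 6.47 to 9.75 and 7.94 to 8.76 in the same order, and over 4 erythrocyte markers 4.44 to 9.88, 0.05 to 8.40 and 0.33 to 7.78. Over 6 neuron markers it was 4.30 to 5.41, 5.26 to 6.07 and 3.88 to 5.34. Over 4 markers of oligodendrocyte precursors it was 3.12 to 3.97, 2.35 to 3.82 and 2.48 to 4.44, and over 5 endothelial markers 0.19 to 4.28, 0.09 to 1.55 and 0.08 to 1.49. In microglia, the 8 monocyte and neutrophil markers averaged 1.68 to 5.26, 2.13 to 6.43 and 1.58 to 8.14, with Ccr2 without signal in every naive library. The part of these cells in the proteasome values was not tested. In sorted bulk RNA, fewer cells of a type and less RNA per cell cannot be told apart.

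A difference was called where the fold change was over 1.5 and the unadjusted p was under 0.05, the cutoff of the study's own analysis, and it passed the adjustment where the Benjamini-Hochberg p over all genes tested was under 0.05. Both come from limma, whose p-values set a difference against the spread between libraries within groups, moderated over all genes.

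The 33 genes lie on 16 chromosomes, with at most 6 on any one (chromosome 11), so they are not a gene cluster. All 33 positions matched the GENCODE M21 annotation of GRCm38. Because vertebrate proteasome genes are known to be controlled together by Nfe2l1 through antioxidant response elements, and many by CCAAT-binding NF-Y, the RefSeq promoter windows of GRCm38.p6 (250 bases before to 50 after the start) were searched on both strands for the letters TGACNNNGC and CCAAT. Windows were found for 27 of the 33 genes, 29 windows in all. TGACNNNGC was in 3 of 29 member windows (10.3%), those of Psmc6, Psmd9 and Psmd12, against 12.4% of all 32851 windows. CCAAT was in 12 of 29 (41.4%) against 37.4%. Both shares were close to those of promoters in general, and a match does not show that a factor binds. The bases from 250 to 51 before the start are printed for 4 members, in the gene's own direction and with motif letters in capitals. Psma5 is shown for its microglial change, which had the smallest adjusted p, Psma7 for the largest called astrocyte change, Psmd4 as a 19S gene called in astrocytes, and Psmc6 as a carrier of TGACNNNGC. Psma5 lies at chr3:108256676-108256875 on the plus strand, Psma7 at chr2:180042515-180042714 on the minus strand, Psmd4 at chr3:95042665-95042864 on the minus strand and Psmc6 at chr14:45329574-45329773 on the plus strand.
Psma5: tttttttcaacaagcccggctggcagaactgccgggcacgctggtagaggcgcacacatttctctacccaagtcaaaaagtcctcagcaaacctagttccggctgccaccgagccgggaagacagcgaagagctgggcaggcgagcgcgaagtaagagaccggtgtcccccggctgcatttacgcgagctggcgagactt
Psma7: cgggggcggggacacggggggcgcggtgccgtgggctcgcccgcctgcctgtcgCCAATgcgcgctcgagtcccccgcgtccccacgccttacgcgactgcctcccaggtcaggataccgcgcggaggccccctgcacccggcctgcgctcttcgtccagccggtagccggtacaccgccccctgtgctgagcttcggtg
Psmd4: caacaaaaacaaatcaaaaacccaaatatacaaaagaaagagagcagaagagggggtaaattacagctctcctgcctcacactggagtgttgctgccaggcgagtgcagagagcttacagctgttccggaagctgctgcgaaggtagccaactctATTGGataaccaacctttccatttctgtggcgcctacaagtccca
Psmc6: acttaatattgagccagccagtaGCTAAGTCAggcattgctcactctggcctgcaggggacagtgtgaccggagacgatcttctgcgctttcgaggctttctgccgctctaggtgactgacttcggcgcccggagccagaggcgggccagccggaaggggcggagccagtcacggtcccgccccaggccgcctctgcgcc

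Psma5 held neither motif. In Psma7, CCAAT spans bases -196 to -192 from the start, and in Psmd4 the printed match lies on the opposite strand, read as ATTGG, at -95 to -91. The Psmd4 window held 2 more CCAAT matches after the start, at 1 to 5 on the opposite and 20 to 24 on the gene's own strand. In Psmc6 the capitals mark TGACNNNGC on the opposite strand at -227 to -219.

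Proteasome transcripts were abundant in both glial types. Averaged over the 15 microglia libraries, Psmb2, a beta subunit next to the catalytic ones, was the highest member at a log2 FPKM of 8.15, followed by the alpha subunit Psma7 at 7.97 and the beta subunit Psmb3 at 7.74. In astrocytes the ATPase Psmc5 led at 8.13, then Psmb2 at 7.79 and Psmb3 at 7.64. The 20S genes filled 7 of the top 10 places in microglia and 6 of 10 in astrocytes, and their median member level was 6.68 against 6.02 for 19S genes in microglia and 6.48 against 5.65 in astrocytes. FPKM divides by a length, so these levels can be compared between genes only roughly. The annotated exon length ran from 1204 bases (Psmb2) to 7265 (Psmd1), and which length the values used was not checked.

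**Figure D1:**
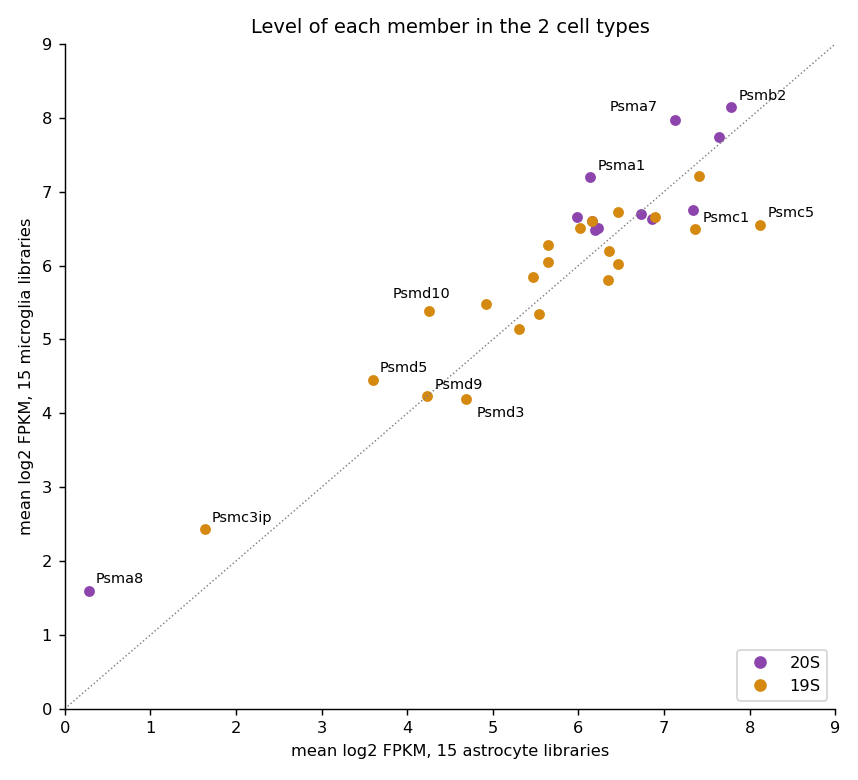
Mean log2 FPKM of each of the 33 members over 15 astrocyte libraries (x axis) and 15 microglia libraries (y axis), with 20S genes in purple, 19S genes in orange and a dotted line of equal level. Most points lie close to the line, Psmc5 and Psmc1 lie below it, and Psma8 and Psmc3ip sit far down in both cell types.

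The testis subunit Psma8 was the lowest member in both cell types. Its mean was 1.09 ± 1.26 (SD, n = 4), 2.00 ± 1.23 (n = 6) and 1.53 ± 1.08 (n = 5) in naive, EAE-vehicle and EAE-RIPK1inh-1 microglia, with signal in 11 of the 15 libraries. In astrocytes it had signal in 3 of 15 libraries, 1 in each group. Psmc3ip was next, at 2.43 in microglia and 1.63 in astrocytes, without signal in 3 and 6 libraries. Psmd3, Psmd5, Psmd8 and Psmd12 lacked signal only in EAE-vehicle astrocytes 1, and the other 27 members, 11 of 20S and 16 of 19S, had signal in all 30 libraries.

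Replicates spread less in microglia than in astrocytes. The within-group SD, pooled over the 3 groups, had a median over members of 0.37 for 20S and 0.44 for 19S genes in microglia, and of 0.68 and 1.06 in astrocytes. A difference of a given size was therefore harder to detect in astrocytes, most of all for 19S genes.

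Averaged over its 12 genes, the 20S core stood at a mean log2 FPKM of 6.17 ± 0.19 (SD, n = 4) in naive, 6.82 ± 0.21 (n = 6) in EAE-vehicle and 6.64 ± 0.22 (n = 5) in EAE-RIPK1inh-1 microglia. The naive libraries were at 5.98 to 6.41 and the EAE-vehicle libraries at 6.58 to 7.11, so these groups did not overlap. The 19S mean over 21 genes was 5.58 ± 0.39, 5.84 ± 0.16 and 5.61 ± 0.21 in the same order. Its naive libraries, at 5.02 to 5.88, overlapped the EAE-vehicle libraries at 5.61 to 6.04. Within a library, the 20S mean exceeded the 19S mean by 0.59 ± 0.32 in naive, 0.98 ± 0.13 in EAE-vehicle and 1.02 ± 0.14 in EAE-RIPK1inh-1 microglia. The 20S step from naive to EAE-vehicle was 0.65 and the 19S step 0.26. Without Psmc3ip the 19S means were 5.68 ± 0.44, 6.03 ± 0.14 and 5.79 ± 0.21, the 19S step was 0.35, and the 20S mean exceeded the 19S mean by 0.48 in naive, 0.78 in EAE-vehicle and 0.85 in EAE-RIPK1inh-1 microglia. Over the 27 members with signal in all libraries, which leave out Psma8 and Psmc3ip, the microglia differences were 0.81 ± 0.35, 1.07 ± 0.16 and 1.17 ± 0.19. Naive libraries were then at 0.53 to 1.31 and EAE-vehicle libraries at 0.86 to 1.20. No test was made on these means, since the genes were chosen as a list.

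**Figure D2:**
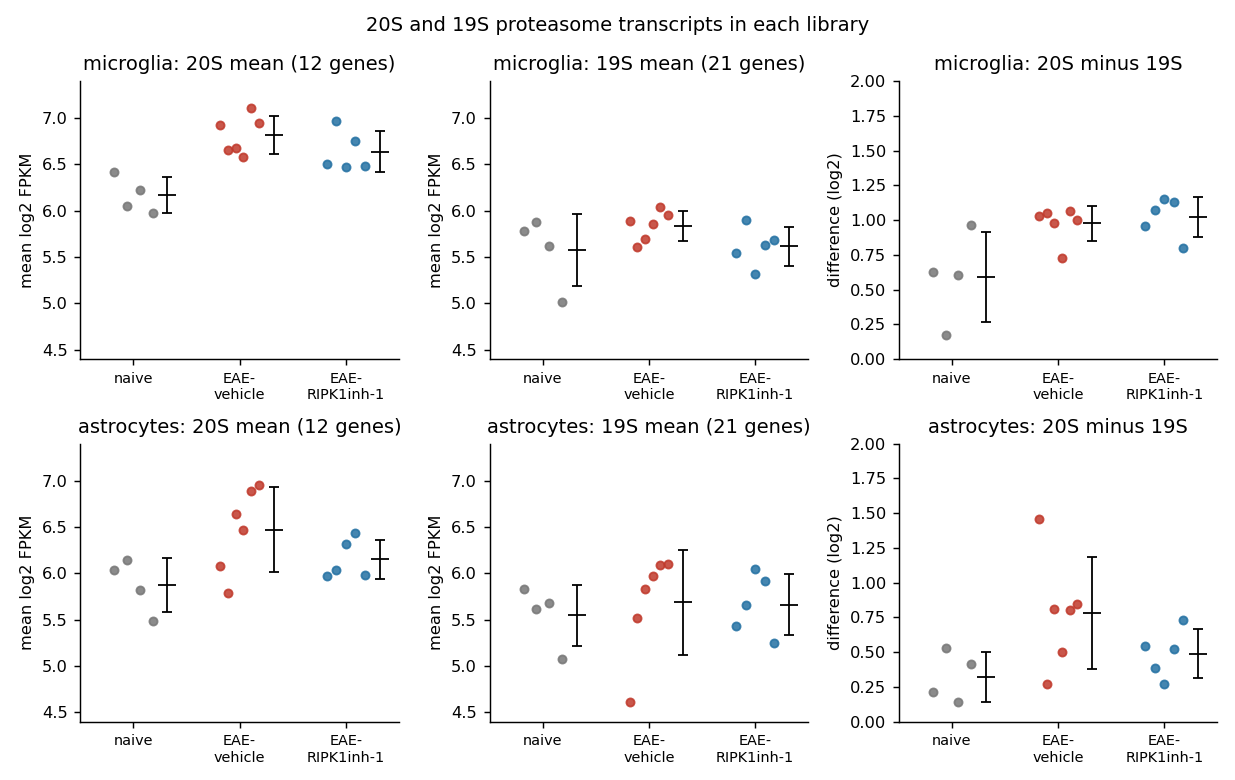
Mean log2 FPKM over the 12 20S genes (left), over the 21 19S genes (middle) and their difference (right) in each library of microglia (top) and astrocytes (bottom), with points for libraries and bars for group mean ± SD. In microglia the 20S points of naive mice all lie below those of EAE-vehicle mice, while the 19S points overlap.

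In astrocytes both particles had the same order of group means as in microglia, with a wider spread in EAE-vehicle mice, but the order of the 19S means depended on Psmc3ip. Their 20S mean was 5.87 ± 0.29 (SD, n = 4) in naive, 6.47 ± 0.46 (n = 6) in EAE-vehicle and 6.15 ± 0.21 (n = 5) in EAE-RIPK1inh-1 mice, and the 19S mean was 5.55 ± 0.33, 5.69 ± 0.57 and 5.66 ± 0.33. The EAE-vehicle 20S libraries ran from 5.79 to 6.95 and overlapped the naive ones at 5.49 to 6.14. The difference of 20S and 19S was 0.32 ± 0.18, 0.78 ± 0.40 and 0.49 ± 0.17, and the highest EAE-vehicle value, 1.46, came from EAE-vehicle astrocytes 1, the library in which Psmd3, Psmd5, Psmd8 and Psmd12 had no signal. Without Psmc3ip the astrocyte 19S means were 5.70 ± 0.29, 5.88 ± 0.55 and 5.91 ± 0.31, so the inhibitor group was then highest, and the differences were 0.17, 0.59 and 0.25. Over the 27 members with signal in all libraries the astrocyte differences were 0.61, 0.80 and 0.67.

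In microglia, EAE was accompanied by higher 20S transcripts. Of the 33 members, 12 were called higher in EAE-vehicle than in naive mice and 0 lower. Among all 28958 genes tested, 6.13% were called higher and 5.86% lower, and among the 6338 genes with signal in every microglia library 13.9% were higher and 15.8% lower. The called members were 8 of the 12 20S genes but 4 of the 21 19S genes. The median log2 fold change was 0.76 for 20S and 0.22 for 19S genes, against -0.02 over all genes, and 10 of 12 20S and 14 of 21 19S genes were above 0, where 39.6% of all genes were. Among the 6338 genes with signal 44.1% were above 0, with a median of -0.12. The 19S median was 0.24 without Psmc3ip, 0.06 without naive microglia 4 and 0.34 without naive microglia 1, and the 20S median was 0.63 to 0.80 when single libraries were left out. After adjustment, 4 members passed, all higher (Psma5, Psmb1, Psmb2 and Psmd13), beside 2.37% of all genes and 6.18% of those with signal in every microglia library. The adjusted count depended on single libraries: in 11 of the 15 fits that each left out 1 library it was 1 or 2, and Psma5 passed in 15 of 15.

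Of the 7 alpha subunits that form the outer ring (Psma1 to Psma7), 4 were called higher. Psma5 changed most among 20S genes. It lies on chromosome 3 at 108256926 to 108279974 (GRCm38). In naive microglia it read 6.23, 5.81, 5.40 and 5.02, in EAE-vehicle microglia it ran from 6.91 through a median of 7.12 to 7.27, and in EAE-RIPK1inh-1 microglia it read 6.94, 7.25, 6.55, 7.26 and 6.90. Every library of either EAE group was above every naive library. The increase over naive was 1.48 ± 0.22 (log2, SE), a 2.80-fold change, with an adjusted p of 9.48e-04 by limma and an exact two-sided permutation p of 0.00952, the smallest that 4 against 6 libraries can give.

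Psma4 (chromosome 9, 54950790 to 54958030) was also called, but its naive libraries were scattered. They read 6.86, 6.18, 4.82 and 5.26, the EAE-vehicle libraries ran from 6.36 through 6.85 to 7.16, and the EAE-RIPK1inh-1 libraries read 6.95, 7.19, 6.88, 7.04 and 6.97. One naive library thus stood among the EAE-vehicle libraries and the others below. The fold change was 1.04 ± 0.32 on the log2 scale, with a limma adjusted p of 0.0969 and an exact permutation p of 0.0476.

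Psma2 (log2 fold change 0.96 ± 0.26) and Psma7 (0.64 ± 0.25) were the other alpha subunits called, with limma adjusted p of 0.0539 and 0.219. Psma1 (0.28 ± 0.15), Psma3 (-0.30 ± 0.23) and Psma6 (-0.24 ± 0.29) were not called, although each of these subunits occurs once in the finished ring.

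The beta ring behaved more evenly. All 4 of its non-catalytic subunits, Psmb1 to Psmb4, were called higher. The mean over these 4 genes was 6.49 to 7.07 in naive and 7.41 to 7.84 in EAE-vehicle libraries, without overlap. Psmb1 read 6.53, 5.97, 6.41 and 6.00 in naive microglia and 6.66 to 7.25 with a median of 6.98 in EAE-vehicle microglia. Psmb2 read 7.66, 8.13, 7.26 and 7.93 in naive and 8.31 to 8.72 with a median of 8.58 in EAE-vehicle microglia. Both separated the groups fully, with increases of 0.74 ± 0.19 and 0.78 ± 0.20 (log2) and limma adjusted p of 0.0405 and 0.0488. Psmb3 was higher by 0.85 ± 0.23 (adjusted p = 0.0574) and Psmb4 by 0.65 ± 0.26 (adjusted p = 0.245).

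Among the 19S genes, 1 of the 6 ATPases was called, Psmc5, with a log2 fold change of 0.85 ± 0.36 and an adjusted p of 0.286. The other ATPases lay between -0.25 (Psmc4) and 0.28 (Psmc1). ATPases thread the unfolded substrate into the core, and their mean was 6.45 ± 0.32 in naive and 6.66 ± 0.15 in EAE-vehicle microglia.

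Of the 3 base non-ATPases, Psmd2, a scaffold of the base, was called. It lies on chromosome 16 at 20651652 to 20663414. Naive libraries read 5.65, 5.66, 5.75 and 2.83, EAE-vehicle libraries 5.86 through 6.22 to 6.52, and EAE-RIPK1inh-1 libraries 5.77, 6.11, 5.35, 6.05 and 6.37. The low naive value is that of library 4, and the other naive libraries were close together just under the EAE-vehicle range. The log2 fold change was 1.27 ± 0.47 (limma adjusted p = 0.196, exact permutation p = 0.00952), and 0.55 without naive microglia 4, when Psmd2 was no longer called. The ubiquitin receptor Psmd4 was at 7.15, 7.22, 7.07 and 2.01 in the naive libraries, again lowest in library 4, and was not called (1.14 ± 0.79). Psmd1 was at -0.18 ± 0.22.

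Of the 8 lid genes, 2 were called. Psmd13 (chromosome 7, 140881968 to 140898643), a structural lid subunit, had the largest fold change of all members. Its naive libraries read 4.56, 5.44, 4.09 and 2.54, its EAE-vehicle libraries ran from 5.38 through 5.83 to 5.96, and its EAE-RIPK1inh-1 libraries read 5.42, 5.52, 4.93, 5.14 and 5.10. One naive library lay inside the EAE-vehicle range and the lowest was again library 4. The difference was 1.56 ± 0.40 (adjusted p = 0.0440, exact permutation p = 0.0286). Without naive microglia 4 it was 1.02 (adjusted p = 0.0494), and when libraries were left out one at a time it passed the adjustment in 2 of 15 fits. Psmd14, the deubiquitinase that removes ubiquitin chains before degradation, was higher by 0.61 ± 0.26 (adjusted p = 0.305).

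The lid subunit Psmd11 went the other way, at 6.87, 6.82, 6.94 and 6.89 in naive and 6.38 to 6.56 in EAE-vehicle microglia. These groups did not overlap and the unadjusted p was 0.00591, but the log2 fold change of -0.42 ± 0.13 was under the fold cutoff and the adjusted p was 0.102. It was named after its values were seen. The 3 assembly chaperones were not called, with values of 0.30 (Psmd5), 0.40 (Psmd9) and -0.05 (Psmd10), and Psmc3ip was at -1.39 ± 0.84.

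Naive microglia 4, which had signal in 8710 genes, carried several of the lowest 19S values. Without it, 9 members were called higher, of which 2 were 19S genes. The 19S count was likewise 2 without EAE-vehicle microglia 3, and 1 member was called lower without EAE-vehicle microglia 5.

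**Figure D3:**
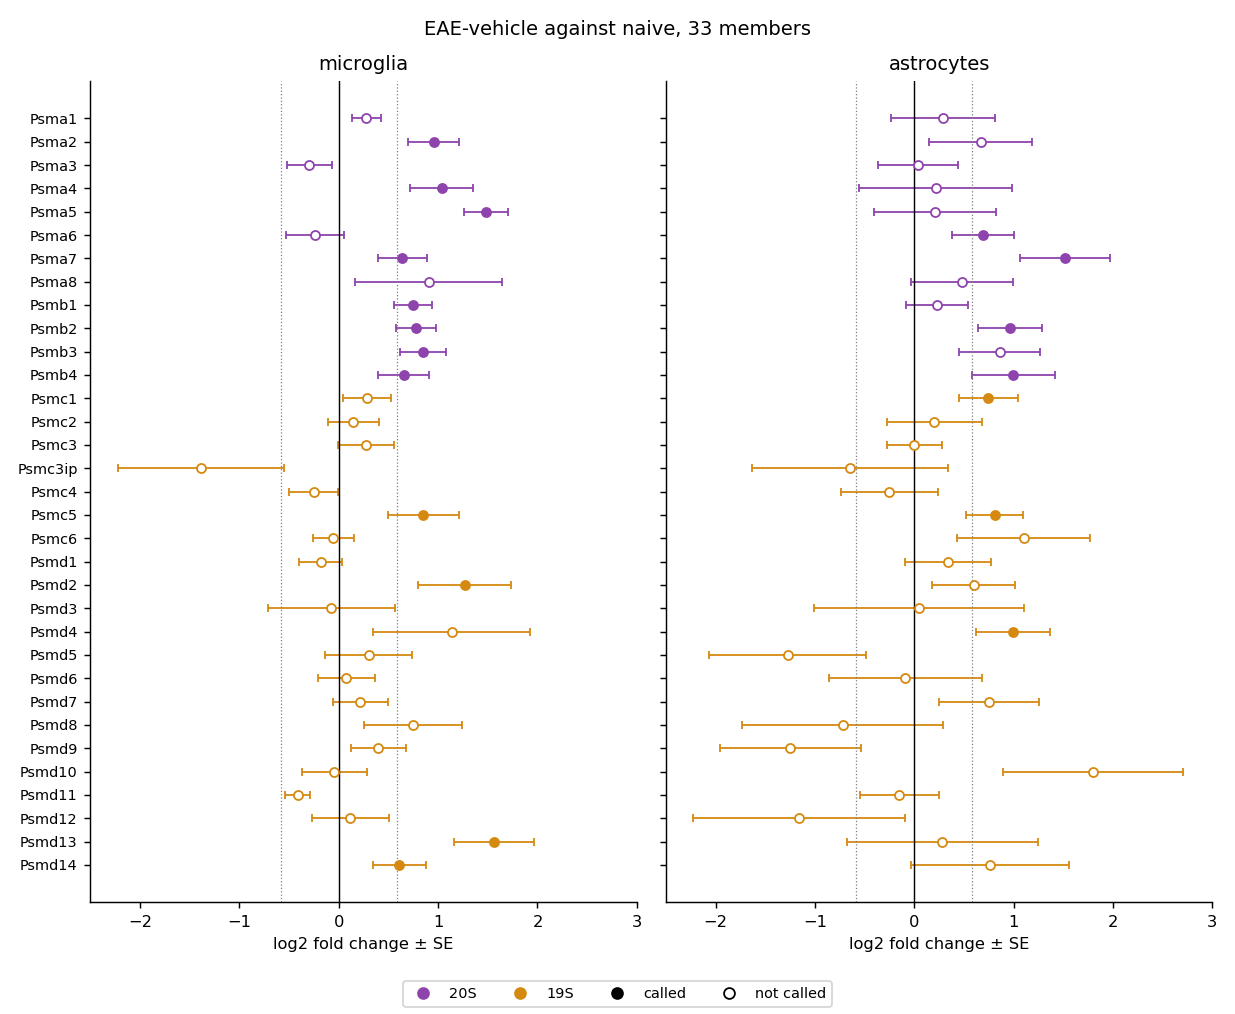
Log2 fold change ± SE of EAE-vehicle against naive for the 33 members in microglia (left) and astrocytes (right), 20S in purple and 19S in orange, filled where called and with dotted lines at the fold cutoff of 1.5. In microglia 12 points are filled, 8 of them 20S. In astrocytes 7 are filled, and the error bars are wider.

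In astrocytes, 7 members were called higher in EAE-vehicle than in naive mice and 0 lower, where 2.69% of the 30718 genes tested were called higher and 4.01% lower (9.94% and 9.71% of the 3019 genes with signal in every astrocyte library). They were 4 of 12 20S genes (Psma6, Psma7, Psmb2 and Psmb4) and 3 of 21 19S genes (Psmc1, Psmc5 and Psmd4). None passed the adjustment by limma, which 0.342% of all genes passed in the higher direction, and 7 had an unadjusted p under 0.05. The median log2 fold change was 0.57 for 20S and 0.20 for 19S genes against 0.03 for all genes. The 19S median was 0.24 without Psmc3ip, 0.57 without EAE-vehicle astrocytes 1, when the 20S median was 0.68, and 0.10 without EAE-vehicle astrocytes 6, when the 20S median was 0.39. EAE-vehicle astrocytes 1 had signal in 6728 genes, the fewest of the astrocyte libraries. All 12 20S genes and 13 of 21 19S genes were above 0, as were 56.1% of all genes and 51% of the 3019 genes with signal. The calls rested on naive astrocytes 4: without this library 2 members were called, Psma7 and Psmb2.

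Psma7 (chromosome 2, 180036374 to 180042433) showed the largest called difference. Its naive astrocyte libraries read 6.70, 6.59, 6.62 and 4.99, its EAE-vehicle libraries ran from 6.65 through 7.81 to 8.56, and its EAE-RIPK1inh-1 libraries read 7.46, 6.87, 6.10, 8.01 and 7.10. The EAE-vehicle range began just inside the top of the naive range. The log2 fold change was 1.52 ± 0.45 (2.86-fold, limma adjusted p = 0.238, exact permutation p = 0.019), and 1.11 without naive astrocytes 4.

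Psmb2 (chromosome 4, 126677630 to 126709714) was, of the 4 called genes with the largest astrocyte differences, the one whose naive and EAE-vehicle libraries did not overlap. Naive libraries read 7.16, 7.41, 6.95 and 7.23, EAE-vehicle libraries 7.58 through 8.20 to 8.70, and EAE-RIPK1inh-1 libraries 6.81, 8.58, 7.90, 8.24 and 7.59. The EAE-RIPK1inh-1 libraries covered nearly the whole of both ranges. EAE-vehicle was higher by 0.96 ± 0.32 (adjusted p = 0.349, exact permutation p = 0.00952). Outside these 4, the called genes Psma6 and Psmc5 also had no overlap. Naive libraries reached 6.98 for Psma6 and 7.88 for Psmc5, and EAE-vehicle libraries began at 7.02 and 7.93.

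Psmb4 (chromosome 3, 94884093 to 94886961) read 7.21, 6.30, 6.95 and 6.66 in naive, 7.02 through 7.83 to 8.23 in EAE-vehicle, and 7.81, 5.55, 7.46, 7.41 and 8.00 in EAE-RIPK1inh-1 astrocytes. Naive and EAE-vehicle overlapped in 1 library each. The log2 fold change was 1.00 ± 0.42 (adjusted p = 0.588, exact permutation p = 0.019). It was 0.84 without naive astrocytes 2, 0.96 without naive astrocytes 4, 0.91 without EAE-vehicle astrocytes 3 and 0.96 without EAE-vehicle astrocytes 5, and was not called in any of these 4 fits.

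The ubiquitin receptor Psmd4 (chromosome 3, 95032694 to 95042614) read 6.73, 6.09, 6.01 and 5.85 in naive, 6.53 through 7.06 to 8.44 in EAE-vehicle, and 7.23, 7.47, 7.52, 6.39 and 7.05 in EAE-RIPK1inh-1 astrocytes. Only the top naive library reached the EAE-vehicle range. The log2 fold change was 1.00 ± 0.37 (adjusted p = 0.469, exact permutation p = 0.0286), and 0.89, no longer called, without naive astrocytes 4. The called ATPases were Psmc5 (0.81 ± 0.28) and Psmc1 (0.75 ± 0.30), with adjusted p of 0.398 and 0.533. The 11 exact permutation tests on single members were not adjusted for each other. Their members were picked by fold change or p in the same libraries. A small permutation p is therefore no separate evidence beside the limma result.

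The members that moved most without being called were 19S genes with uneven libraries. Psmd10 was at 3.47, 6.20, 1.85 and 1.38 in the naive and 2.61 to 6.71 in the EAE-vehicle astrocytes, so the groups overlapped and the log2 fold change of 1.80 had an SE of 0.91. Psmd5 (-1.27 ± 0.79), Psmd9 (-1.25 ± 0.71) and Psmd12 (-1.16 ± 1.07) lay on the other side of 0. Psmd5 and Psmd12 had no signal in EAE-vehicle astrocytes 1, so their fold changes rest in part on bottom values of that library. The means of microglia, monocyte and neutrophil, T cell, oligodendrocyte and neuron markers had higher ranges in EAE-vehicle than in naive astrocyte libraries, as given above. Astrocyte markers had a lower range there.

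**Figure D4:**
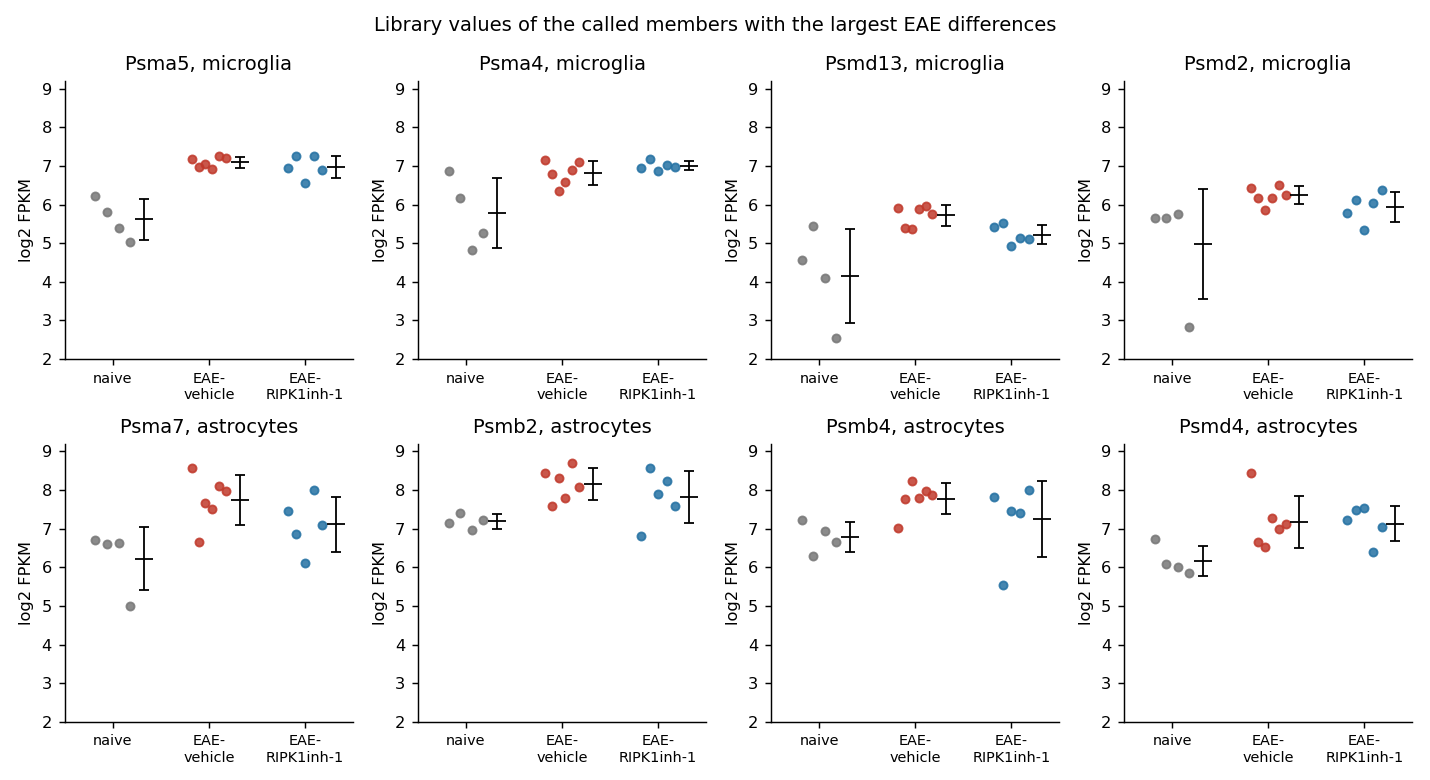
Log2 FPKM in each library of the 4 called members with the largest EAE differences in microglia (top) and in astrocytes (bottom), points for libraries and bars for group mean ± SD. Psma5 separates all naive from all EAE microglia, and the low naive values of Psmd13 and Psmd2 (2.54 and 2.83) come from the same library.

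RIPK1inh-1 was compared with vehicle in mice with EAE. This comparison shares its EAE-vehicle libraries with the preceding one, so the values are not independent of it. In microglia, 0 members were called higher and 1 lower, where 1.06% and 0.701% of all genes were (2.16% and 1.88% of those with signal in every microglia library). No member passed the adjustment by limma. The member called lower was Psma7. EAE-vehicle libraries ran from 8.05 through 8.33 to 8.60, and EAE-RIPK1inh-1 libraries read 7.97, 8.27, 7.07, 7.85 and 7.58 beside naive libraries at 7.34, 7.45, 7.55 and 8.44. One inhibitor library lay inside the vehicle range. The log2 fold change was -0.59 ± 0.23 (unadjusted p = 0.0232, adjusted p = 0.930, exact permutation p = 0.013). It sat at the fold cutoff, and it was no longer called without EAE-vehicle microglia 1, 3 or 5 or without EAE-RIPK1inh-1 microglia 3 or 5, where it was -0.42 to -0.58.

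Of the other members, 3 had an unadjusted p under 0.05 and were under the fold cutoff, namely Psmb2 (-0.51 ± 0.19), Psmc1 (-0.53 ± 0.22) and Psmc3 (-0.57 ± 0.26), each with an adjusted p of 0.930. The median log2 fold change was -0.18 for 20S and -0.21 for 19S genes against -0.02 for all genes, and 9 of 33 members were above 0, where 37.1% of all genes were. Among genes with signal in every microglia library 48.6% were above 0, with a median of -0.01, against 8 of 31 members. The median over all members, -0.21, was -0.35 without EAE-RIPK1inh-1 microglia 2 and -0.11 without EAE-RIPK1inh-1 microglia 3. All 6 ATPases were below 0, between -0.57 and -0.08. The number called lower depended on single libraries, from 0 (without EAE-vehicle 1, 3 or 5 or EAE-RIPK1inh-1 3) to 2 (without EAE-vehicle 2), 4 (without EAE-RIPK1inh-1 1) and 5 (without EAE-RIPK1inh-1 2).

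In astrocytes, 0 members were called in either direction, where 1.84% of all genes were called higher and 1.18% lower, and 0 had an unadjusted p under 0.05 or passed the adjustment. The 2 with the smallest p were the deubiquitinase Psmd14 and the beta subunit Psmb3. Psmd14 (chromosome 2, 61711694 to 61800376) ran from 4.82 through 6.30 to 7.10 in EAE-vehicle and read 6.39, 3.21, 5.94, 5.98 and 2.00 in EAE-RIPK1inh-1 astrocytes, with naive libraries at 6.12, 5.09, 5.59 and 4.74. Only 2 of the 5 inhibitor libraries were below the vehicle range. The log2 fold change was -1.45 ± 0.75 (unadjusted p = 0.0714, adjusted p = 0.840, exact permutation p = 0.165). It was -0.77 without EAE-RIPK1inh-1 astrocytes 5, and it was called lower without EAE-vehicle astrocytes 1 or EAE-RIPK1inh-1 astrocytes 1, 3 or 4, at -1.71 to -1.87.

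Psmb3 (chromosome 11, 97703399 to 97713500) ran from 7.37 through 7.95 to 9.01 in EAE-vehicle and read 7.06, 8.26, 7.81, 7.49 and 6.31 in EAE-RIPK1inh-1 astrocytes, beside 7.47, 7.74, 7.23 and 6.58 in naive ones. The groups overlapped, and the difference was -0.73 ± 0.38 (unadjusted p = 0.0752, exact permutation p = 0.117). It was -0.46 without EAE-RIPK1inh-1 astrocytes 5, and it was called lower without EAE-vehicle astrocytes 2 (-0.88) or EAE-RIPK1inh-1 astrocytes 2 (-0.95). The median log2 fold change in astrocytes was -0.36 for 20S and -0.02 for 19S genes against -0.03 for all genes, and 2 of 12 20S and 9 of 21 19S genes were above 0, where 41.1% of all genes were. Among genes with signal in every astrocyte library 44.2% were above 0, with a median of -0.08. The median over all members, -0.13, was -0.27 without EAE-vehicle astrocytes 1 and -0.04 without EAE-RIPK1inh-1 astrocytes 1. One or 2 members were called lower in 6 of 15 fits that lacked a single library, namely 1 without EAE-vehicle astrocytes 1 or 2 or EAE-RIPK1inh-1 astrocytes 1 or 3 and 2 without EAE-RIPK1inh-1 astrocytes 2 or 4. The size of change that these libraries could have detected was not computed. The absence of calls does not show that the groups were equal.

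**Figure D5:**
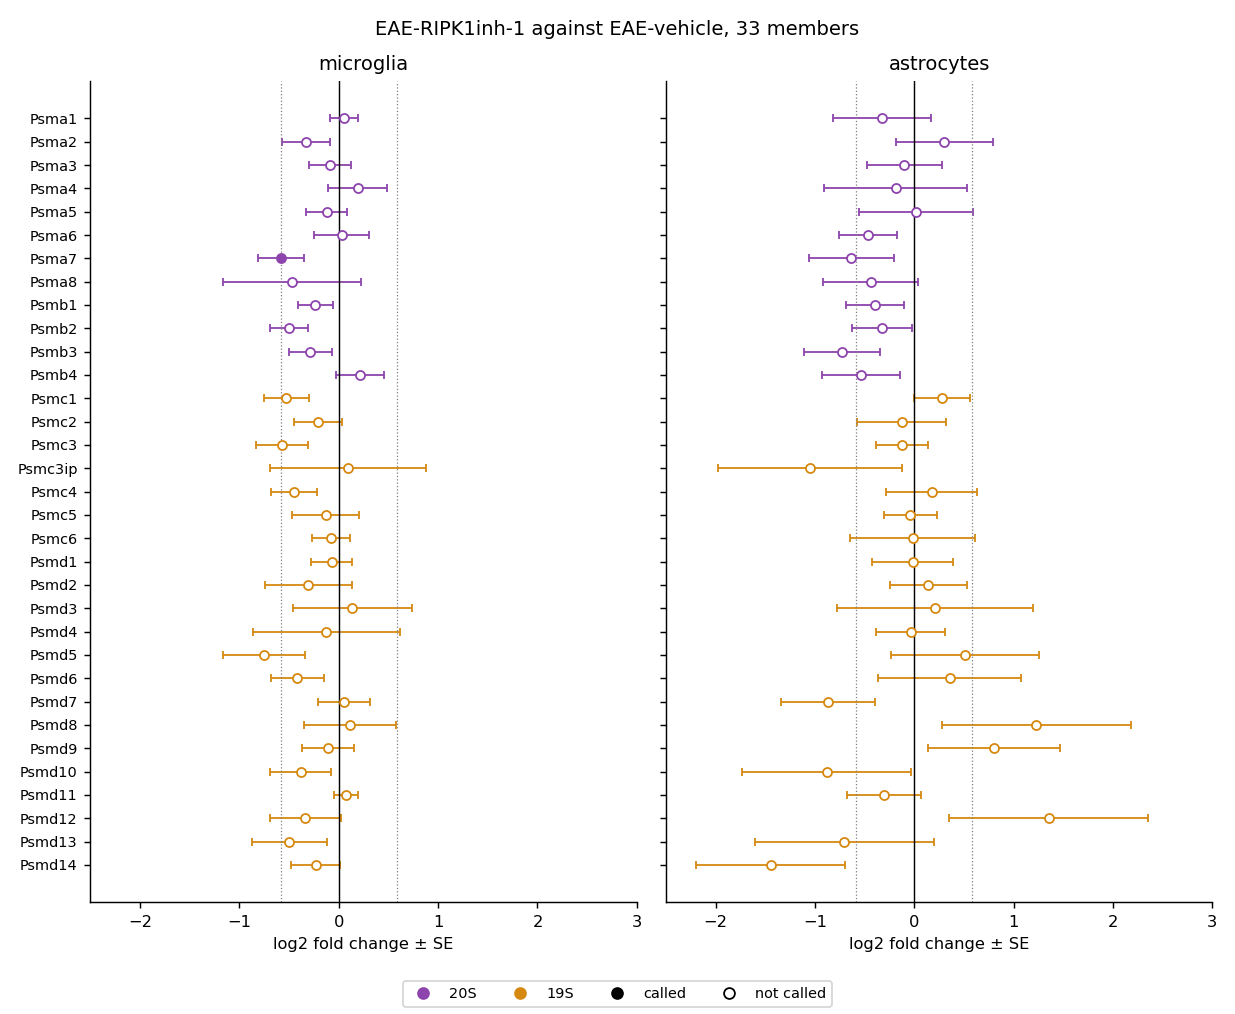
Log2 fold change ± SE of EAE-RIPK1inh-1 against EAE-vehicle for the 33 members in microglia (left) and astrocytes (right), 20S in purple and 19S in orange, filled where called. Psma7 in microglia is the one filled point, at -0.59.

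Set against naive mice, inhibitor-treated microglia had 5 members called higher and 1 lower, beside 5.35% and 4.71% of all genes. Among genes with signal in every microglia library the shares were 11.2% and 13.3%. The members called higher were Psma5 (1.36 ± 0.23), Psma4 (1.23 ± 0.33), Psmd13 (1.07 ± 0.42), Psmb4 (0.86 ± 0.27) and Psma2 (0.63 ± 0.27), and the ATPase Psmc4 was lower (-0.71 ± 0.26). Psma5 alone passed the adjustment by limma (adjusted p = 0.00348), beside 1.81% of all genes in that direction and 4.72% of those with signal. The count of higher calls was 8 without naive microglia 1, and that of lower calls 3 without naive microglia 3 and 0 without EAE-RIPK1inh-1 microglia 3. The median over the members was 0.27, and 0.02 without naive microglia 4. In astrocytes, 3 were called higher, Psmc1 (1.02 ± 0.31), Psmd4 (0.96 ± 0.39) and Psmc5 (0.77 ± 0.29), and 0 lower, beside 1.98% and 2.64% of all genes (5.17% and 6% of those with signal in every astrocyte library). No member passed the adjustment by limma, and 3 had an unadjusted p under 0.05. Without naive astrocytes 4 the higher count was 1 and the lower count 1, and the lower count was also 1 without EAE-RIPK1inh-1 astrocytes 3.

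The cell types differed in a few subunits, in a fit that took all 30 libraries as independent. Psmc5 was lower in microglia than in astrocytes in every group, by 1.57 in naive (limma adjusted p = 0.00265), 1.53 in EAE-vehicle (3.73e-04) and 1.62 in EAE-RIPK1inh-1 mice (5.86e-04) on the log2 scale. Its mean was 5.97 ± 1.09, 6.83 ± 0.21 and 6.69 ± 0.22 in microglia and 7.55 ± 0.39, 8.35 ± 0.31 and 8.31 ± 0.53 in astrocytes. The annotation marks Psmc5 as confounded, and the part of shared reads was not tested. Psmc1 was lower in microglia in EAE-vehicle (-0.73, adjusted p = 0.0434) and EAE-RIPK1inh-1 mice (-1.53, adjusted p = 1.06e-04). Higher in microglia were Psma7 (1.47, adjusted p = 0.0132) and Psmd10 (2.33, adjusted p = 0.0442) in naive, Psmd5 (1.70, adjusted p = 0.0478) in EAE-vehicle and Psma1 (1.31, adjusted p = 0.0188) in EAE-RIPK1inh-1 mice. Members passing in the higher and lower direction thus numbered 2 and 1, 1 and 2, and 1 and 2, beside 5.94% and 5.93%, 7.89% and 5.91%, and 7.18% and 5.78% of all genes. Among genes with signal in all 30 libraries the shares were 11.8% and 17.4%, 15.9% and 16.7%, and 15.8% and 14.9%. The naive total of 3 was 1 without naive microglia 4 or naive astrocytes 4, and the EAE-vehicle total of 3 was 1 without EAE-vehicle microglia 1, 3, 5 or 6.

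Whether the EAE effect itself differed between cell types was tested as an interaction. Of the 33 members, 1 was called higher in microglia, Psmd9 (1.64 ± 0.77, limma adjusted p = 0.518), and 1 lower, Psma6 (-0.93 ± 0.42, adjusted p = 0.488). The shares were 4.97% and 3.71% of all genes, and 11.6% and 6.46% of those with signal in all 30 libraries. No member passed the adjustment by limma, so the larger number of calls in microglia does not show that proteasome genes responded differently there. For the inhibitor effect, 0 were called higher and Psmc1 lower (-0.81 ± 0.36, adjusted p = 0.948), beside 1.49% and 1.66% of all genes (3.04% and 2.17% of those with signal). Both counts depended on single libraries, at 0 to 4 for the EAE effect and 0 to 1 for the inhibitor effect.

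The deposited annotation marks 15 members as confounded, namely Psma2 to Psma6, Psmc3, Psmc3ip, Psmc5, Psmd1, Psmd3, Psmd5, Psmd9, Psmd12, Psmd13 and Psmd14. What the mark covers is not given in the sources used here. If it means reads shared with another gene, these values are less certain than the rest. The other members, among them Psma7, Psmb1 to Psmb4, Psmc1, Psmd2 and Psmd4, are not marked.

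The 6 catalytic subunits left out by the rule are given for scale. In EAE-vehicle against naive microglia the immunoproteasome subunits Psmb9, Psmb8 and Psmb10 differed by 1.84, 1.81 and 0.72 and the constitutive Psmb5, Psmb7 and Psmb6 by 1.72 ± 0.96, 1.44 and 0.62 (log2), of which Psmb9, Psmb8 and Psmb7 passed the adjustment by limma. In astrocytes Psmb8, Psmb9 and Psmb10 rose by 8.78, 6.31 and 2.17, all passing the adjustment, and Psmb5, Psmb6 and Psmb7 were at 0.61, 0.52 and 0.24, none of them called. Psmb8 and Psmb9 had signal in 1 of the 4 naive astrocyte libraries, so the sizes of these 2 fold changes depend on values at the bottom of the scale.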

How the data were processed

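Libraries of sorted microglia and astrocytes (4 naive, 6 EAE-vehicle and 5 EAE-RIPK1inh-1 of each) were made by a SMART-seq2 type protocol with Tn5 fragmentation, which does not mark strand. With OmicSoft Array Studio (version 10.1.1.3) the authors aligned and quantified the reads, normalized and log2-transformed the values and deposited one table of log2 FPKM per gene with an annotation. The deposited values have the same sorted values in all 30 libraries, as after quantile normalization, which sets every library to one distribution and can hide a shift of all genes. The offset added before the log and the read depth are not given in the sources used here, so fold changes of low genes may be understated. The aligner settings are likewise not given there.

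Values were used as deposited. A library was taken to have no signal for a gene where the value lay in its lowest stretch, which follows the order of the table (values up to 1.74 in microglia and 2.74 in astrocytes). Tests used limma 3.58.1 in R 4.3.3 (lmFit, contrasts.fit, eBayes with a variance trend) over 28958 genes in the 15 microglia libraries, 30718 in the 15 astrocyte libraries and 30952 in all 30, with Benjamini-Hochberg adjustment. The study's methods name a paired test. Nothing in the labels pairs mice of different groups, so the tests were unpaired. The study describes both cell types as sorted from the spinal cords of the same EAE mice. The labels do not say which microglia and astrocyte libraries share a mouse. The cell type comparisons and interactions therefore took the 30 libraries as independent, and any pairing by mouse was ignored. Exact permutation tests were two-sided (scipy 1.17.1) and were run on members picked from the same values. Scripts were tested on simulated data. No interval on counts can be given.

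Described with their library values (lowest, median and highest for the groups of 6) were the 4 called members with the largest fold change in each EAE and each inhibitor comparison, or, with none called, the 2 with the smallest p; others are named by level, by signal or as called. Alternatives were a filter at a mean log2 value of 1, centring, no variance trend, library weights, other log offsets, the number of genes with signal as covariate, a replicate block and leaving out each library. The members and lists were chosen with earlier results of these data known. Some genes of the list of other proteasome genes are not reported here. Protein sequences were not used here.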

Additional observations from a re-analysis of the deposited data

Results flagged for a closer look

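Within groups of 4 to 6 libraries, 10 of the 78 groups examined held 1 library far from the others by Dixon's criterion. Chance meets it in about 1 of 20 groups. Examined were the members picked by fold change or p in the EAE and inhibitor comparisons, the 20S and 19S means and their difference. The remaining members were not examined. Picking members by their differences can itself favour such libraries, so the chance share is only a rough guide. Of the members examined, library 4 of naive microglia was apart for the 19S genes Psmd2 (2.83, others 5.65 to 5.75), Psmd4 (2.01, others 7.07 to 7.22) and Psmd14 (4.69, others 5.67 to 5.78). This library had signal in fewer genes than any other microglia library.

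In naive astrocytes, library 4 was apart for Psma7 (4.99, others 6.59 to 6.70). EAE-vehicle astrocytes 1 was apart for Psma4 (3.71, others 6.53 to 7.36). Among EAE-RIPK1inh-1 astrocytes, library 2 was apart for Psma4 (3.29, others 6.44 to 7.44) and Psmb4 (5.55, others 7.41 to 8.00), library 1 for Psmd13 (1.00, others 5.24 to 6.53) and library 4 for Psmd2 (5.52, others 6.71 to 7.01). All of these lay below the rest of their group. The difference of the 20S and 19S means was lowest in EAE-vehicle microglia 4 (0.73, others 0.98 to 1.07).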

How the results depend on the processing

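Of 1596 values under alternatives, 1462 were counted as the same. Counts of members were the same within a factor of 1.5, and medians and differences of means when they moved by less than the spread between libraries. Single members were the same when they kept direction and side of the threshold. By these rules 0 reversed, but medians near 0 changed sign within the spread. The median over the members was 0.13 for naive microglia against astrocytes and -0.02 without naive microglia 1. For the EAE interaction it was -0.01, and 0.215 without naive astrocytes 4. Psma5 passed the adjustment in microglia under all 9 alternatives other than single libraries left out (adjusted p 3.17e-04 to 0.0202). Counts of members near the cutoff moved, and the cause was not tested. With genes kept at mean log2 values from 1 upward, adjusted calls numbered 7 (microglia, EAE-vehicle against naive), 2 (microglia, inhibitor against naive) and 6 (microglia against astrocytes in EAE-vehicle), 1 member was called lower in astrocytes with inhibitor, 3 were called between cell types in EAE-RIPK1inh-1, and 0 in either interaction. With each library centred, microglia had 2 adjusted in EAE and 2 lower with inhibitor, astrocytes had 5 higher in inhibitor against naive, and the EAE interaction had 1. Centring shifted the median of all genes by up to 0.19 (astrocytes, inhibitor against naive) and 0.11 (astrocytes, inhibitor against vehicle). Without a variance trend or with an offset of 0.1, 2 passed the adjustment in microglia, inhibitor against naive.

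With library weights, microglia had 5 lower with inhibitor, and 0 lower with a median of 0.0407 against naive. Under the same weights astrocytes in EAE had 11 higher (5 of 19S), 1 lower and 3 adjusted, with a median of 0.68 over the members and 0.65 over 19S, 1 was lower with inhibitor and 9 were higher against naive. An offset of 4, and the number of genes with signal as covariate, left 0 lower in microglia with inhibitor. Without the 3 libraries with signal in under 9000 genes, chosen after seeing the data, 19S genes called higher in microglia in EAE were 2, the microglia median of inhibitor against naive was 0.0173, and astrocytes had 1 lower with inhibitor and 5 higher against naive.

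Nothing in the labels says that replicate numbers pair libraries of different groups. Same-numbered libraries had correlated deviations of -0.17 to 0.43 in microglia, over 0.1 in 7 of 13 pairs (all those of numbers 1, 3 and 5), and of -0.28 to 0.12 in astrocytes, over 0.1 in 2 of 13, so not every pair did. A library correlated best with its own number in another group in 11 of 26 cases in microglia and 10 of 26 in astrocytes. The smallest group held 4 libraries, so a random pick would meet its own number in at most 1 of 4 cases. Both shares were above this, but the excess was not tested. The unpaired tests took no account of a link by number. With a replicate block, microglia in EAE had 8 called, without Psma7, Psmc5, Psmd14 and Psmd2, with 1 adjusted and 1 of 19S called, and 0 were lower with inhibitor. Astrocytes in EAE had 4 called under the block, 2 of them 20S.

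The difference of 20S and 19S means moved by over 1 SD in these cases. It was 0.78 without Psmc3ip, 0.82 without Psmd5, Psmd9 and Psmd10 and 0.83 as medians in EAE-vehicle microglia. In EAE-RIPK1inh-1 microglia it was 0.85, 0.83 and, over members with signal in all libraries, 1.17. In naive astrocytes it was 0.0915 without the 3 chaperones, 0.61 over members with signal and 0.54 as medians, and in EAE-RIPK1inh-1 astrocytes 0.25 without Psmc3ip, 0.22 without the chaperones and 0.67 over members with signal.

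Leaving out 1 library at a time gave these ranges. In microglia, EAE gave 0 to 1 lower, 1 to 4 adjusted and 2 to 4 of 19S higher, with a 19S median of 0.06 to 0.34. Inhibitor against vehicle gave 0 to 5 lower, and against naive 4 to 8 higher, 0 to 3 lower, 1 to 2 adjusted and a median of 0.0173 to 0.29. In astrocytes, EAE gave 2 to 8 higher, 2 to 5 of 20S and 0 to 4 of 19S, with a 19S median of 0.10 to 0.57, inhibitor against vehicle 0 to 2 lower, and against naive 1 to 4 higher and 0 to 1 lower. Between cell types, naive gave 4 to 8 called and 1 to 4 adjusted, EAE-vehicle 1 to 4 adjusted and EAE-RIPK1inh-1 3 to 7 called, with 0 to 4 for the EAE and 0 to 1 for the inhibitor interaction.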

Other observations

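A list of 28 other proteasome genes (assembly chaperones, activators, further 19S partners, transcriptional regulators and ubiquitin-activating enzymes), chosen with earlier results of these data known, moved with the 20S genes in microglia in part. Between naive and EAE-vehicle microglia, 8 were called higher and 0 lower (6.13% and 5.86% of all genes), and 5 rose after adjustment by limma (2.37%). Those that rose were Psme2 (2.86 on the log2 scale) and Psme1 (1.69), the subunits of the interferon-inducible PA28 activator, the small 19S subunit Sem1 (1.58) and the 20S assembly chaperones Psmg4 (1.52) and Pomp (1.18). Nfe2l1, which activates proteasome genes, was at 0.23 ± 0.54 (SE) and was not called.

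In astrocytes the same list had 2 called higher, Psme2 and Psme1, and 0 lower (2.69% and 4.01% of all genes), and Psme2 alone rose after adjustment (2.63), from 5.15 ± 0.64 (SD, n = 4) to 7.78 ± 0.65 (n = 6). Sem1 was at -0.07 and Psmg4 at 1.19 ± 1.25 (SE), neither of them called. Under RIPK1inh-1 no gene of the list was called in microglia (1.06% of all genes higher and 0.701% lower), 2 were called lower in astrocytes (Ecpas at -1.84 and Ubqln1 at -1.62, beside 1.18% of all genes), and 0 passed the adjustment by limma in either cell type.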
